A study of Mus musculus with 12 samples.

Results

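The Toll-like receptor (TLR) genes Tlr1, Tlr2, Tlr3, Tlr4, Tlr5, Tlr6, Tlr7, Tlr8, Tlr9 and Tlr13 were followed through 2 RNA-seq experiments. They are 10 of the 55487 genes in the count tables and were picked by matching the Ensembl identifier of each row to its mouse symbol. The first experiment compared bone marrow macrophages (BMMs) of ovariectomized (OVX) and sham-operated C57BL/6 mice, with 3 libraries each. The second compared bone marrow mesenchymal stem cells (MSCs) of C57BL/6 mice kept alone (MSC), in a transwell with untreated RAW264.7 cells, a mouse macrophage line (MSC+RAW-TW), or in a transwell with RAW264.7 cells that had received lipopolysaccharide (MSC+RAW-LPS-TW), with 2 libraries each. The labels give limbs as the tissue and an age of 8 weeks for all mice. By the methods the mice of the ovariectomy model were female and operated at that same age, so the age at which OVX and sham marrow was taken is not clear from the label. The BMMs were grown from leg bone marrow with macrophage colony-stimulating factor (M-CSF), and the MSCs were adherent marrow cells of passage 3. The sources used here do not say how many mice went into each library.

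TLRs are receptors of innate immunity that bind conserved parts of microbes and, in some cases, of dying cells. Tlr1, Tlr2, Tlr4, Tlr5 and Tlr6 sit at the cell surface and bind lipopeptides, lipopolysaccharide or flagellin, whereas Tlr3, Tlr7, Tlr8, Tlr9 and Tlr13 sit in endosomes and bind RNA or DNA. They signal through the adaptors MyD88 or TRIF to NF-kB and interferon regulatory factors, and macrophages are among the cells best known for carrying them.

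The libraries held between 17012923 and 45367105 counts. Sham replicates 2 and 3 were nearly identical, as were both MSC+RAW-TW libraries, so each pair was counted as 1 sample, which left n = 3 for OVX, 2 for sham, 2 for MSC, 1 for MSC+RAW-TW and 2 for MSC+RAW-LPS-TW. The lone MSC+RAW-TW sample was assumed to vary like the other MSC groups in every test. All 12 macrophage markers had more than 3 counts in every library of both experiments. Their median was 242 to 275 counts scaled to library size (CPM) in OVX, 353 to 419 in sham, 163 to 188 in MSC, 321 to 323 in MSC+RAW-TW and 211 to 219 in MSC+RAW-LPS-TW. The median of 12 stromal markers was 75.6 to 84.5 CPM in MSC, 34.3 to 34.5 in MSC+RAW-TW and 140 to 148 in MSC+RAW-LPS-TW. The methods describe the MSCs as CD45-. Ptprc, the gene for CD45, stood at 167 and 171 CPM in the libraries labelled MSC, against 105 to 159 CPM in OVX and 71.4 to 86.8 CPM in sham BMMs. The libraries labelled MSC thus held macrophage transcripts beside stromal ones. In such bulk libraries, fewer cells of a type and less RNA per cell cannot be told apart.

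All members are placed on GRCm38. The lipopeptide receptor genes lie at chr5:64924679-64933563 (Tlr1, minus strand), chr5:64952031-64960097 (Tlr6, minus strand) and chr3:83836272-83841767 (Tlr2, minus strand). Tlr4 lies at chr4:66827584-66930284 and Tlr5 at chr1:182954788-182976044, both on the plus strand. The endosomal members lie at chr8:45395665-45411080 (Tlr3, minus strand), chrX:167304929-167330558 (Tlr7, minus strand), chrX:167242696-167264329 (Tlr8, minus strand), chr9:106222598-106226883 (Tlr9, plus strand) and chrX:106143204-106160493 (Tlr13, plus strand). Exons of Tlr3 overlap Gm45542 on the other strand, and since the strand setting of the counting is not stated, reads of both genes cannot be told apart. Transcripts of Tlr1 and Tlr6 matched over 1328 bases at 88.8% identity, and no member had a stretch that was near-identical to another gene.

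Taking each member at its largest absolute log2 fold change over the MSC comparisons, Tlr1, Tlr9 and Tlr13 moved most. Tlr2 was among the highest members per kb in each group. The sequences just upstream of Tlr1, Tlr2, Tlr9 and Tlr13 are therefore shown. They are RefSeq promoter sequences of build GRCm38.p6, 5′ to 3′ on the strand of the gene, limited to bases outside the annotated gene. Capitals mark the letters GAGGAA, the core bound by the macrophage factor PU.1, and in Tlr2 an NF-kB site. The stretches are chr5:64933564-64933808 (minus strand), chr3:83841768-83841858 (minus strand), chr9:106222348-106222597 (plus strand) and chrX:106143025-106143203 (plus strand).
Tlr1: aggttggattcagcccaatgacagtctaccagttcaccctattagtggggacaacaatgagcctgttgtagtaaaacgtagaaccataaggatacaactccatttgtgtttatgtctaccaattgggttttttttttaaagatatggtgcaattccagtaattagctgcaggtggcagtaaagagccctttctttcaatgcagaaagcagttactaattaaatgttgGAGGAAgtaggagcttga
Tlr2: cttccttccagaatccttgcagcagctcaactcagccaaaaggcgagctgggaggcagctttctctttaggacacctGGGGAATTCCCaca
Tlr9: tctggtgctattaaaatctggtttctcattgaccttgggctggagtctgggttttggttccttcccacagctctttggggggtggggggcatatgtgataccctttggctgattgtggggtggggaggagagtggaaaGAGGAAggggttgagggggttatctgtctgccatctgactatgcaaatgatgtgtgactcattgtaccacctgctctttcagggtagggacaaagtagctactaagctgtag
Tlr13: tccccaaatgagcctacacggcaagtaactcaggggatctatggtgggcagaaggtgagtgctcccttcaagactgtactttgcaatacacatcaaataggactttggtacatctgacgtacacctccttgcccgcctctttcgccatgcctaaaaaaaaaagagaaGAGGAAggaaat

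Promoters of 8 of the 10 members were in the RefSeq table, which did not list Tlr4 and Tlr7. Over the window from 250 bases before to 50 bases after the start, on both strands, GAGGAA was in 4 of the 10 promoters listed for these 8 members (1 each of Tlr1, Tlr8, Tlr9 and Tlr13) and in 28.3% of all 32851 promoters. An NF-kB site was in 2 (Tlr2 and Tlr3, against 8.46% of all), the GAS element TTCNNNGAA of STAT factors in 3 (Tlr1, Tlr6 and Tlr8, against 8.3%) and the ISRE core of interferon-driven genes in 1 (Tlr6, against 3.44%). The TATA box TATAAA was in 2 (Tlr6 and Tlr8, against 13.6%), and the estrogen response element in 0, against 0.07% of all promoters. In Tlr2 both upstream NF-kB matches overlap and share the capital letters shown. In Tlr6 the matches to the ISRE core overlap, and in Tlr8 those to the TATA box do. These are matches of letters only.

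In BMMs, 1 TLR gene was called between OVX and sham. Tlr1 was lower in OVX. All OVX libraries lay above all sham libraries for 4 members (Tlr4, Tlr7, Tlr8 and Tlr13) and below them for 3 (Tlr1, Tlr2 and Tlr6), while Tlr3, Tlr5 and Tlr9 overlapped. These 7 of 10 stand beside 42.9% of all genes tested whose libraries did not overlap, 21.8% higher and 21.1% lower. A gene was called where its fold change reached 2 (a log2 value of 1 in either direction) while its p, adjusted over all 16768 genes tested, was 0.05 or lower. The 1 call among 10 members stands beside 8.46% of all genes called, and 3.08% called lower. On the adjusted p alone 2 members passed, 1 higher and 1 lower, beside 13.1% of all genes, 7.25% higher and 5.83% lower. The median log2 fold change of the TLR genes was 0.07, against -0.01 over all genes tested.

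Tlr1 pairs with Tlr2 to bind triacylated bacterial lipopeptides. It was at 54.6, 39.9 and 34.7 CPM in OVX replicates 1 to 3 and at 112, 68.5 and 60.0 CPM in sham replicates 1 to 3. Every OVX library lay below every sham library, and sham replicate 1 stood well above the rest. The log2 fold change was -1.04 ± 0.28 (SE) with an adjusted p of 0.0474 in edgeR's quasi-likelihood test. The call rested on single libraries. With libraries left out the log2 fold change lay between -1.39 and -0.57, the latter without sham replicate 1, which leaves 1 sham sample. Without OVX replicate 1, 2 or 3 the adjusted p was 0.071, 0.172 and 0.106. Without sham replicate 2 it was 0.061. With the GC and length trends removed Tlr1 was still called lower.

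Tlr2 and Tlr6 encode the other lipopeptide receptors. Tlr2 was at 154, 158 and 140 CPM in OVX and at 249, 159 and 162 CPM in sham, so that OVX replicate 2 nearly met sham replicate 2. Its log2 fold change was -0.45 ± 0.22 (adjusted p = 0.202). Tlr6 was at 9.75, 9.83 and 9.24 CPM in OVX and at 13.6, 12.3 and 12.5 CPM in sham. The groups did not overlap, but the log2 fold change of -0.45 ± 0.20 did not pass (adjusted p = 0.167).

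Tlr4, the lipopolysaccharide receptor, was at 30.3, 20.1 and 21.6 CPM in OVX and at 19.9, 14.1 and 15.4 CPM in sham. The groups touched without overlapping, and the log2 fold change was 0.46 ± 0.25 (adjusted p = 0.254). It turned to -0.35 once each library's trends with GC content and length had been removed. Tlr5, the flagellin receptor, lay between 0.599 and 1.36 CPM in all 6 BMM libraries, with overlapping groups and a log2 fold change of -0.32 ± 0.48 (adjusted p = 0.705).

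Among the endosomal members, Tlr13 binds bacterial ribosomal RNA. It was at 93.8, 79.6 and 80.4 CPM in OVX and at 51.7, 53.5 and 45.9 CPM in sham. All OVX libraries lay above all sham libraries. The log2 fold change was 0.73 ± 0.18 (adjusted p = 0.0335), past the limit on p but short of the fold limit. With the GC and length trends removed it was 0.29 (adjusted p = 0.255).

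Tlr7 and Tlr8 are neighbours on the X chromosome and bind single-stranded RNA and its breakdown products. Tlr7 was at 56.7, 37.8 and 30.4 CPM in OVX and at 27.9, 17.8 and 15.7 CPM in sham, and Tlr8 at 11.9, 5.39 and 8.29 CPM in OVX and at 4.24, 4.18 and 5.23 CPM in sham. For both genes the lowest OVX library was just above the highest sham library. The log2 fold change was 0.90 ± 0.32 for Tlr7 (adjusted p = 0.103) and 0.91 ± 0.34 for Tlr8 (adjusted p = 0.12). Without sham replicate 1, which leaves 1 sham sample, the value of Tlr7 was 1.32. With all libraries kept separate Tlr7 was called, at 1.02 (adjusted p = 0.0306). That setting counts the near-identical sham replicates 2 and 3 as 2 samples. With the GC and length trends removed the values were 0.22 for Tlr7 and 0.13 for Tlr8.

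Tlr9 binds DNA rich in unmethylated CpG. It was at 2.95, 5.57 and 8.06 CPM in OVX and at 7.19, 11.8 and 10.2 CPM in sham, and OVX replicate 3 lay within the range of sham. The change in log2 was -0.72 ± 0.40 (adjusted p = 0.261), and -0.33 with the GC and length trends removed. Tlr3, which binds double-stranded RNA, was at 8.56, 5.20 and 4.35 CPM in OVX and at 4.19, 3.29 and 5.04 CPM in sham, with overlapping groups. Its log2 fold change was 0.50 ± 0.33 (adjusted p = 0.344) and became -0.29 with the trends removed.

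**Figure D1:**
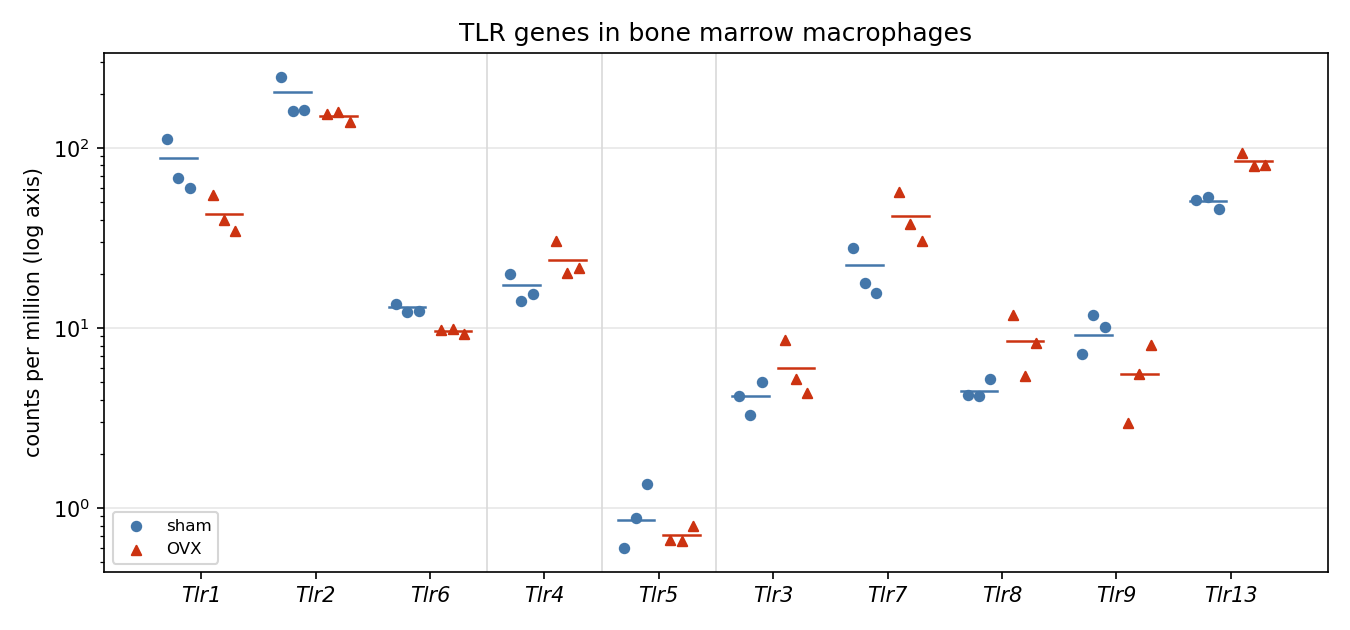
Normalized CPM of the 10 TLR genes on a log axis in the 3 sham (circles) and 3 OVX (triangles) libraries, with a bar at each group mean, in which sham replicates 2 and 3 count as 1 sample. Tlr1 is lower in all OVX libraries (34.7 to 54.6 CPM) than in all sham libraries (60.0 to 112 CPM), and Tlr13 is higher (79.6 to 93.8 against 45.9 to 53.5 CPM).

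These values moved with several features of the libraries whose part in the results was not tested. The summed macrophage markers were 39740 to 44320 CPM in OVX and 53790 to 57880 CPM in sham, and Lyz2 alone held 89.1 to 91.5% of that sum. Without it the sum was 3402 to 3890 CPM in OVX and 5477 to 6334 CPM in sham. Single markers, named here after their values were seen, did not all go that way: Cx3cr1 was at 170 to 298 CPM in OVX and 86.3 to 97.6 CPM in sham, Ptprc was also higher in OVX, and Cd68 overlapped. Neutrophil markers summed to 1200 to 1332 CPM in OVX against 807 to 943 in sham, but their median was 9.75 to 13.1 CPM in OVX and 12.1 to 16.9 in sham. Stromal markers summed to 8248 to 9201 CPM in OVX against 7391 to 8005 in sham. Osteoclast markers summed to 261 to 270 CPM in OVX against 456 to 601 in sham, and plasmacytoid dendritic cell markers to 1.07 to 2.67 against 4.04 to 5.09. Of the last list Cox6a2 held most, with a mean of 1.25 CPM in OVX and 3.28 in sham. Every other member of it had a mean of at most 0.611 CPM, and Klk1 was at 0 in both groups. Over genes within a library, Spearman's rho between GC content and expression relative to the mean was -0.599, -0.415 and -0.328 in OVX and 0.219, 0.509 and 0.518 in sham replicates 1 to 3. The longest transcript had a GC content of 39.4% for Tlr4, 40.0% for Tlr3, 40.1% for Tlr8 and 41.0% for Tlr7, and of 56.2% for Tlr9, 49.3% for Tlr2 and 45.1% for Tlr1. Scaled to the median macrophage marker of each library, the log2 difference was 1.52 for Tlr7, 1.49 for Tlr8, 1.32 for Tlr13, 1.10 for Tlr3 and 1.06 for Tlr4, while that of Tlr1 shrank to -0.42 and those of Tlr2, Tlr5 and Tlr6 turned to 0.15, 0.22 and 0.13. That scale put the median of all genes at 0.57.

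Per kb of exon, Tlr2 was the most abundant member in both BMM groups, at 67.9 ± 20.7 CPM per kb in sham (SD, n = 2) and 49.9 ± 3.09 in OVX (n = 3). In sham it was followed by Tlr1 (26.4 ± 10.1), Tlr13 (11.8 ± 0.324) and Tlr7 (5.46 ± 1.93). In OVX the next was Tlr13 (19.7 ± 1.85), and then Tlr1 (12.9 ± 3.08) and Tlr7 (10.2 ± 3.32), whose ranges overlapped. In sham Tlr4 overlapped Tlr6 above it and Tlr9 below it. In OVX neighbours overlapped in the order Tlr6, Tlr8, Tlr9 and Tlr3. Tlr5 was last in both groups, at 0.18 ± 0.08 in sham and 0.15 ± 0.02 in OVX. Tlr11 and Tlr12, further mouse TLR genes, had at most 8 counts in any BMM library and 0 in every MSC library, and were not tested.

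Around the receptors, 15 of 69 pathway genes tested were called lower in OVX and 2 higher, beside 3.08% lower and 5.39% higher over all genes. Of 6 co-receptors, Lbp, which carries lipopolysaccharide to CD14, fell (log2 fold change -1.29), and the others did not pass. Cd14 itself was at 330, 335 and 417 CPM in OVX and 597, 539 and 548 CPM in sham (-0.67, adjusted p = 0.0496, short of the fold limit), and Ly96, the MD-2 partner of Tlr4, had a value of 0.37 (adjusted p = 0.429). Of 10 chaperones and endosomal proteins, Hsp90b1, the gp96 chaperone of TLR folding, rose (1.18) and the lysosomal transporter Slc15a3 fell (-1.31). Unc93b1, which carries the nucleic-acid TLRs to endosomes, stood at -0.92 (adjusted p = 0.0325), short of the fold limit.

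Of 6 adaptors, Ticam2, which links Tlr4 to TRIF, and Pik3ap1 fell (-1.17 and -1.14), and Myd88 stood at -0.95 (adjusted p = 0.0152), short of the fold limit. Ikbke (-1.08) was lower among 16 kinases and ubiquitin ligases, the inhibitors Irak3 and Socs1 (-1.14 and -1.22) among 9 inhibitors, and Irf7 (-2.13) among 7 transcription factors. Of 9 MyD88-dependent target genes tested, Tnf, Nfkbia and Cxcl1 fell (-1.19, -1.30 and -1.67) and Ptgs2 rose (1.32). Of 6 TRIF and interferon targets, Ccl5, Isg15, Rsad2 and Mx1 fell (-2.06, -2.04, -1.31 and -1.18). With the GC and length trends removed, 0 of 10 chaperones, 1 of 6 adaptors, 4 of 9 MyD88 targets and 5 of 6 TRIF and interferon targets were called, all of them lower. In all, 14 of the 69 pathway genes were then lower and 0 higher, beside 370 lower and 220 higher of the 16768 genes tested, against 516 and 903 before. Over the alternatives, 0 to 4 of the MyD88 targets, 2 to 5 of the TRIF and interferon targets and 1 to 2 of the transcription factors were lower. The co-receptors, chaperones, adaptors, kinases and inhibitors each had 0 lower calls under at least 1 alternative.

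In the MSC experiment, exposure to lipopolysaccharide-treated RAW264.7 cells went with 5 called TLR genes against MSCs alone. Tlr1 rose, and Tlr4, Tlr5, Tlr9 and Tlr13 fell, with Tlr13 dropping from a mean of 222 to 12.5 CPM. The 5 calls among 10 members stand beside 10.9% of the 20499 genes tested, the 1 rise beside 5.85% and the 4 falls beside 5.09%. On the adjusted p alone 7 members passed, 2 higher and 5 lower, beside 20.9% of all genes, 11.1% higher and 9.85% lower. The median log2 fold change was -0.61 for the TLR genes and -0.01 for all genes. Against MSC+RAW-TW, 4 members were called in MSC+RAW-LPS-TW (Tlr1 and Tlr3 higher, Tlr9 and Tlr13 lower), beside 27.4% of all genes, 15.4% higher and 12% lower. There 7 members passed on the adjusted p alone, 4 higher and 3 lower, beside 40.2% of all genes, 21.3% higher and 18.9% lower. Between MSC+RAW-TW and MSC, 3 members were called, all lower (Tlr3, Tlr8 and Tlr9), beside 16.4% of all genes, 6.8% higher and 9.59% lower. There 5 members passed on the adjusted p alone, all lower, beside 28.6% of all genes and 14.8% lower. The median of all genes was 0.14 in MSC+RAW-LPS-TW relative to MSC+RAW-TW and -0.13 in MSC+RAW-TW against MSC. These 3 comparisons share their samples and are given side by side.

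Tlr13 was the TLR gene with the largest fitted difference. It was at 227 and 216 CPM in MSC, 147 and 145 CPM in MSC+RAW-TW and 14.0 and 11.03 CPM in MSC+RAW-LPS-TW. The 3 groups did not overlap, and the MSC+RAW-LPS-TW libraries were far below the rest. Its log2 fold change was -4.15 ± 0.18 against MSC (adjusted p = 1.8e-10) and -3.57 ± 0.19 against MSC+RAW-TW (adjusted p = 2.8e-09). Between MSC+RAW-TW and MSC it was -0.57 ± 0.20 (adjusted p = 0.0392), short of the fold limit, and -0.06 with the GC and length trends removed. Over the 14 alternatives with a test the difference from MSC stayed between -4.36 and -3.98.

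Tlr9 was highest in MSC, lower in MSC+RAW-TW and lowest in MSC+RAW-LPS-TW. It was at 6.63 and 7.39 CPM in MSC, 2.91 and 2.70 CPM in MSC+RAW-TW and 1.17 and 1.08 CPM in MSC+RAW-LPS-TW, with no overlap between groups. In log2 the change was -2.64 ± 0.33 for MSC+RAW-LPS-TW against MSC (adjusted p = 1.9e-05), -1.35 ± 0.37 against MSC+RAW-TW (adjusted p = 0.0086) and -1.29 ± 0.38 for MSC+RAW-TW against MSC (adjusted p = 0.0188). Without MSC replicate 1 or 2 the last of these had an adjusted p of 0.0656 and 0.125, and with the GC and length trends removed the difference from MSC+RAW-TW was -0.85 (adjusted p = 0.0839). The study shows Tlr9 in a picture of pro-inflammatory genes in these same samples and does not say how those genes were chosen, so its direction here is not taken as independent evidence.

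Tlr1 moved the other way. It was at 27.3 and 27.9 CPM in MSC, 19.4 and 18.3 CPM in MSC+RAW-TW and 78.6 and 68.4 CPM in MSC+RAW-LPS-TW. Both MSC+RAW-LPS-TW libraries were above all others. The fitted log2 change was 1.41 ± 0.16 against MSC (adjusted p = 6.9e-06) and 1.93 ± 0.21 against MSC+RAW-TW (adjusted p = 4.6e-06). Tlr2, its partner, was at 86.7 and 87.5 CPM in MSC, 84.2 and 86.5 CPM in MSC+RAW-TW and 129 and 153 CPM in MSC+RAW-LPS-TW. On the log2 scale the change of 0.69 ± 0.15 against MSC (adjusted p = 0.0037) and of 0.69 ± 0.19 against MSC+RAW-TW (adjusted p = 0.0089) passed the limit on p but not the fold limit.

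Tlr6, also a partner of Tlr2, lay between 24.2 and 27.9 CPM in all 6 MSC libraries, and its log2 fold changes were 0.04 ± 0.17 against MSC and 0.03 ± 0.21 against MSC+RAW-TW (adjusted p = 0.916 and 0.91). Its groups overlapped fully. Tlr4 was at 31.3 and 39.3 CPM in MSC, 30.1 and 30.5 CPM in MSC+RAW-TW and 16.2 and 15.4 CPM in MSC+RAW-LPS-TW. The MSC+RAW-LPS-TW libraries were the lowest, and the log2 fold change was -1.16 ± 0.18 against MSC (adjusted p = 0.000153) and -0.97 ± 0.21 against MSC+RAW-TW (adjusted p = 0.0016), the latter just short of the fold limit. Without MSC replicate 2 the difference from MSC was -0.98, also short of it, and with the GC and length trends removed that from MSC+RAW-TW was called, at -1.87 (adjusted p = 1.2e-05).

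Tlr5 was the scarcest member and rested on few counts. It was at 1.67 and 2.41 CPM in MSC, 0.905 and 0.575 CPM in MSC+RAW-TW and 0.48 and 0.638 CPM in MSC+RAW-LPS-TW. Both MSC libraries were above the rest, and the other groups overlapped. The change in log2 of MSC+RAW-LPS-TW against MSC was -1.86 ± 0.54 (adjusted p = 0.0216), and without MSC replicate 1 or 2 the adjusted p was 0.0553 and 0.254. MSC+RAW-TW stood at -1.40 ± 0.65 against MSC (adjusted p = 0.118), and was called in 4 of 14 alternatives. These were all libraries kept separate, at -1.45 (adjusted p = 0.0286), and a block of the library number series. The others were without MSC+RAW-LPS-TW replicate 1 and with the compared groups alone. The separate and the blocked settings count the near-identical MSC+RAW-TW libraries as 2 samples.

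Tlr3 and Tlr8 were lowest in MSC+RAW-TW. Tlr3 was at 16.02 and 17.3 CPM in MSC, 6.85 and 6.93 CPM in MSC+RAW-TW and 16.5 and 17.1 CPM in MSC+RAW-LPS-TW, so that MSC and MSC+RAW-LPS-TW overlapped. Its log2 fold change was -1.25 ± 0.24 for MSC+RAW-TW against MSC (adjusted p = 0.00176), 1.26 ± 0.24 for MSC+RAW-LPS-TW relative to MSC+RAW-TW (adjusted p = 0.000751) and 0.01 ± 0.19 for MSC+RAW-LPS-TW against MSC (adjusted p = 0.98). With the GC and length trends removed the first 2 of these became -0.44 (adjusted p = 0.179) and 0.41 (adjusted p = 0.167).

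Tlr8 was at 22.1 and 27.3 CPM in MSC, 8.56 and 7.51 CPM in MSC+RAW-TW and 20.7 and 11.2 CPM in MSC+RAW-LPS-TW. The MSC+RAW-LPS-TW libraries lay apart from each other, both between the other groups. In log2 the change was -1.58 ± 0.32 for MSC+RAW-TW against MSC (adjusted p = 0.00225) and -0.63 ± 0.25 for MSC+RAW-LPS-TW against MSC (adjusted p = 0.0847). With the trends removed the former was -0.84 (adjusted p = 0.0554). The latter was called, at -1.17 (adjusted p = 0.000547), without MSC+RAW-LPS-TW replicate 1, the library with the higher Tlr8 value. Against MSC+RAW-TW, MSC+RAW-LPS-TW stood at 0.95 ± 0.31 (adjusted p = 0.0244), short of the fold limit, but at 1.33 (adjusted p = 0.000181) without replicate 2 and 0.45 (adjusted p = 0.151) without replicate 1. It was called at 1.08 without MSC+RAW-TW replicate 1, and was 0.16 with the trends removed.

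Tlr7 was at 70.0 and 77.3 CPM in MSC, 45.6 and 43.3 CPM in MSC+RAW-TW and 46.6 and 52.1 CPM in MSC+RAW-LPS-TW. MSCs alone were highest and the other groups lay close together. The fitted log2 change was -0.70 ± 0.19 for MSC+RAW-TW against MSC (adjusted p = 0.0137) and -0.58 ± 0.15 for MSC+RAW-LPS-TW against MSC (adjusted p = 0.0124), both short of the fold limit. With the trends removed the former was 0.00, from -0.70.

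**Figure D2:**
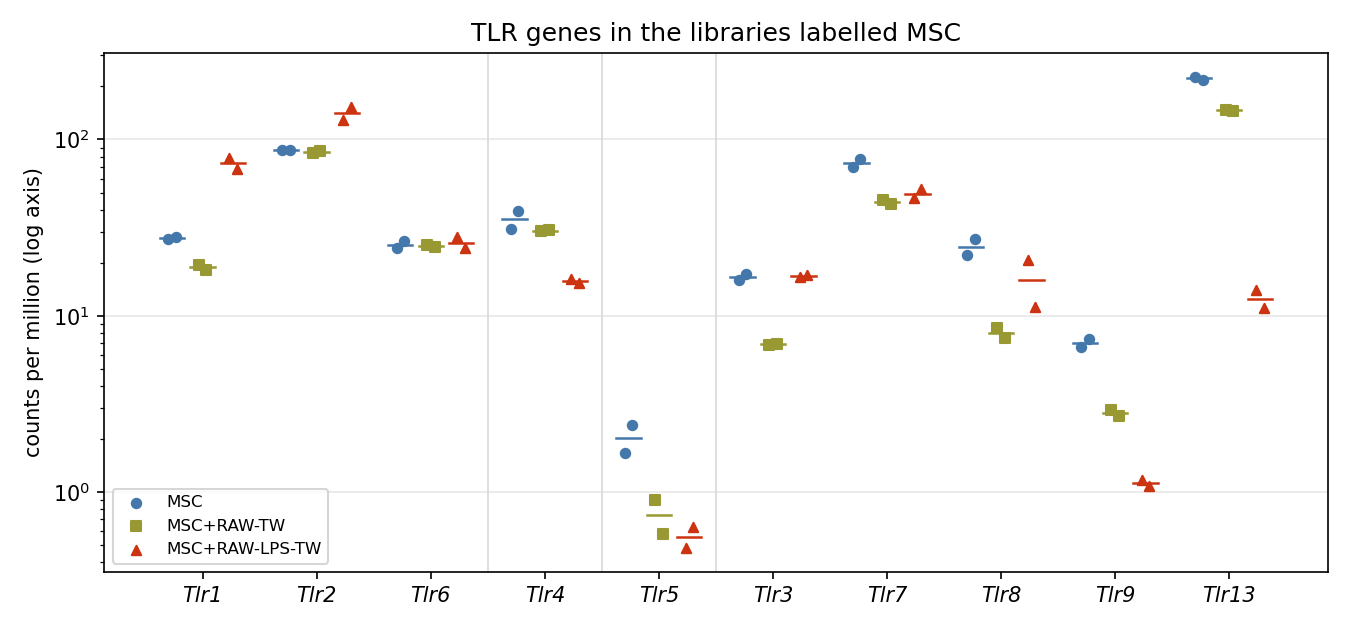
Normalized CPM of the 10 TLR genes on a log axis in the 2 MSC (circles), 2 MSC+RAW-TW (squares) and 2 MSC+RAW-LPS-TW (triangles) libraries, with a bar at each group mean. Tlr13 falls from 216 to 227 CPM in MSC to 11.03 to 14.0 CPM in MSC+RAW-LPS-TW, Tlr1 is highest in MSC+RAW-LPS-TW (68.4 to 78.6 CPM), and Tlr3 is lowest in MSC+RAW-TW (6.85 to 6.93 CPM).

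**Figure D3:**
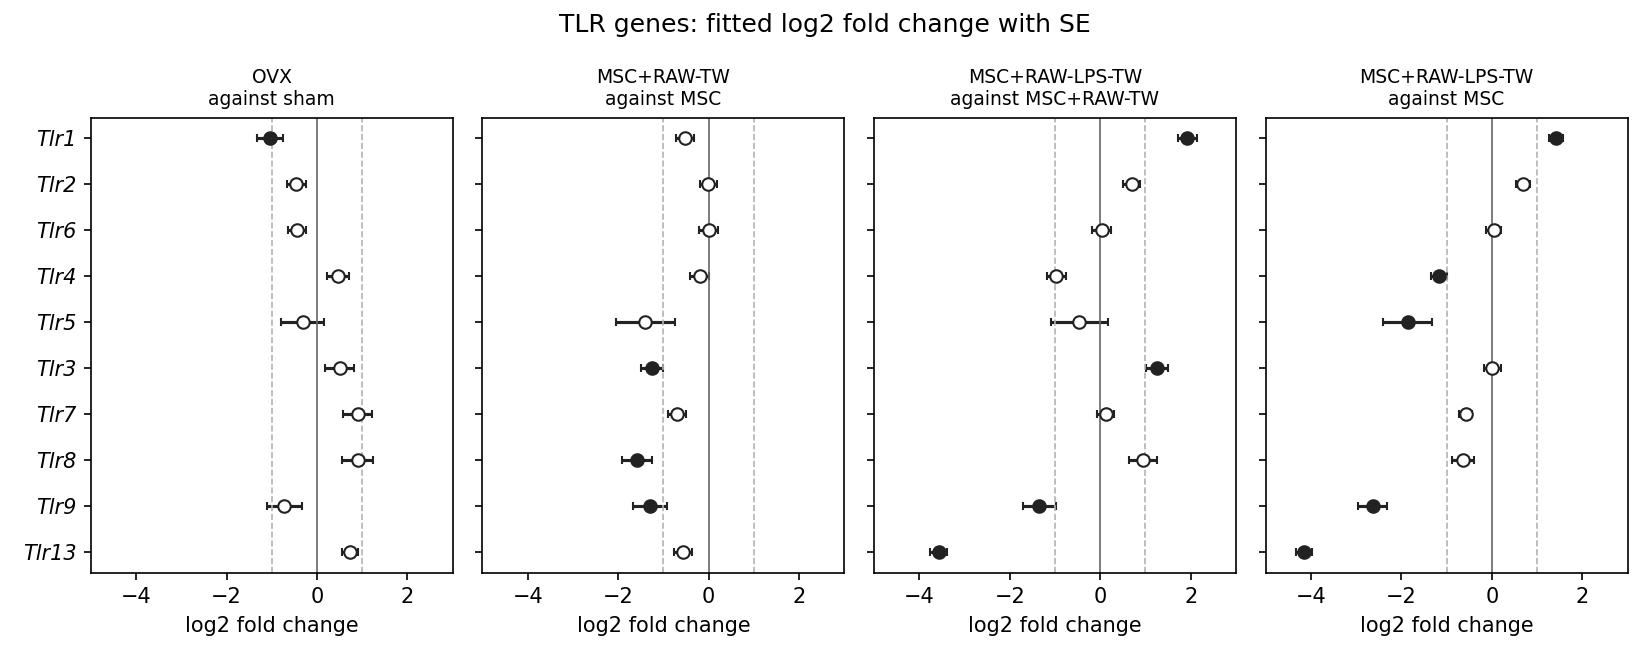
Log2 fold change of each TLR gene with its SE in the 4 comparisons, from edgeR's fit over all genes. Filled points passed the fold limit and the adjusted p, open points did not, and dashed lines mark a log2 fold change of -1 and 1. The called members are 1 in OVX against sham, 3 in MSC+RAW-TW against MSC, 4 in MSC+RAW-LPS-TW relative to MSC+RAW-TW and 5 in MSC+RAW-LPS-TW against MSC.

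The order of the members per kb changed between the MSC groups. In MSC, Tlr13 was first (51.5 ± 1.77 CPM per kb, SD, n = 2), followed by Tlr2 (28.9 ± 0.184), Tlr7 (18.1 ± 1.27) and Tlr1 (8.24 ± 0.130), with Tlr8, Tlr6 and Tlr4 overlapping after these. In MSC+RAW-TW, with 1 sample, Tlr13 (34.0) and Tlr2 (28.3) were again ahead of Tlr7 (10.9). In MSC+RAW-LPS-TW, Tlr2 was first (46.7 ± 5.72), then Tlr1 (22.0 ± 2.16) and Tlr7 (12.1 ± 0.949), and Tlr13 was at 2.91 ± 0.489, its range overlapping those of Tlr3 above it and Tlr4 below it. Tlr5 was last in every group, at 0.43 ± 0.11 CPM per kb in MSC and 0.12 ± 0.02 in MSC+RAW-LPS-TW.

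Macrophage markers moved with these groups, and their part in the results was not tested. The 12 markers summed to 25210 to 25340 CPM in MSC, 31140 to 31600 CPM in MSC+RAW-TW and 12770 to 13760 CPM in MSC+RAW-LPS-TW, while their median was 163 to 188, 321 to 323 and 211 to 219 CPM. Without Lyz2 the sum was 3615 to 3652, 4881 to 4944 and 3623 to 3754 CPM. As a share of the median marker of its own library, Tlr13 was at 139% and 115% in MSC, 45.8% and 44.96% in MSC+RAW-TW, and 6.39% and 5.23% in MSC+RAW-LPS-TW. On this scale the log2 difference of MSC+RAW-LPS-TW from MSC was -4.45 for Tlr13, -2.93 for Tlr9, -1.45 for Tlr4 and 1.11 for Tlr1, with the median of all genes at -0.31. Between MSC+RAW-TW and MSC the scale put all members lower, from -0.90 for Tlr6 to -2.48 for Tlr8, with the median of all genes at -1.04. Neutrophil markers summed to 370 to 557 CPM in MSC+RAW-LPS-TW, against 11.7 to 16.4 CPM in MSC, with 6 or 7 of the 9 at 3 counts or fewer in each of these libraries. Osteoclast markers summed to 53.1 to 55.4 CPM in MSC, 91.7 to 91.8 CPM in MSC+RAW-TW and 124 to 149 CPM in MSC+RAW-LPS-TW, with a median of at most 0.489 CPM in any of these libraries. Plasmacytoid dendritic cell markers summed to at most 3.91 CPM and T and NK cell markers to at most 1.47 CPM in every MSC library, and B cell markers to between 35.6 and 48.5 CPM with a median of at most 0.303 CPM. Spearman's rho with GC content was -0.232 and -0.303 in MSC, 0.397 and 0.394 in MSC+RAW-TW and -0.28 and -0.136 in MSC+RAW-LPS-TW.

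**Figure D4:**
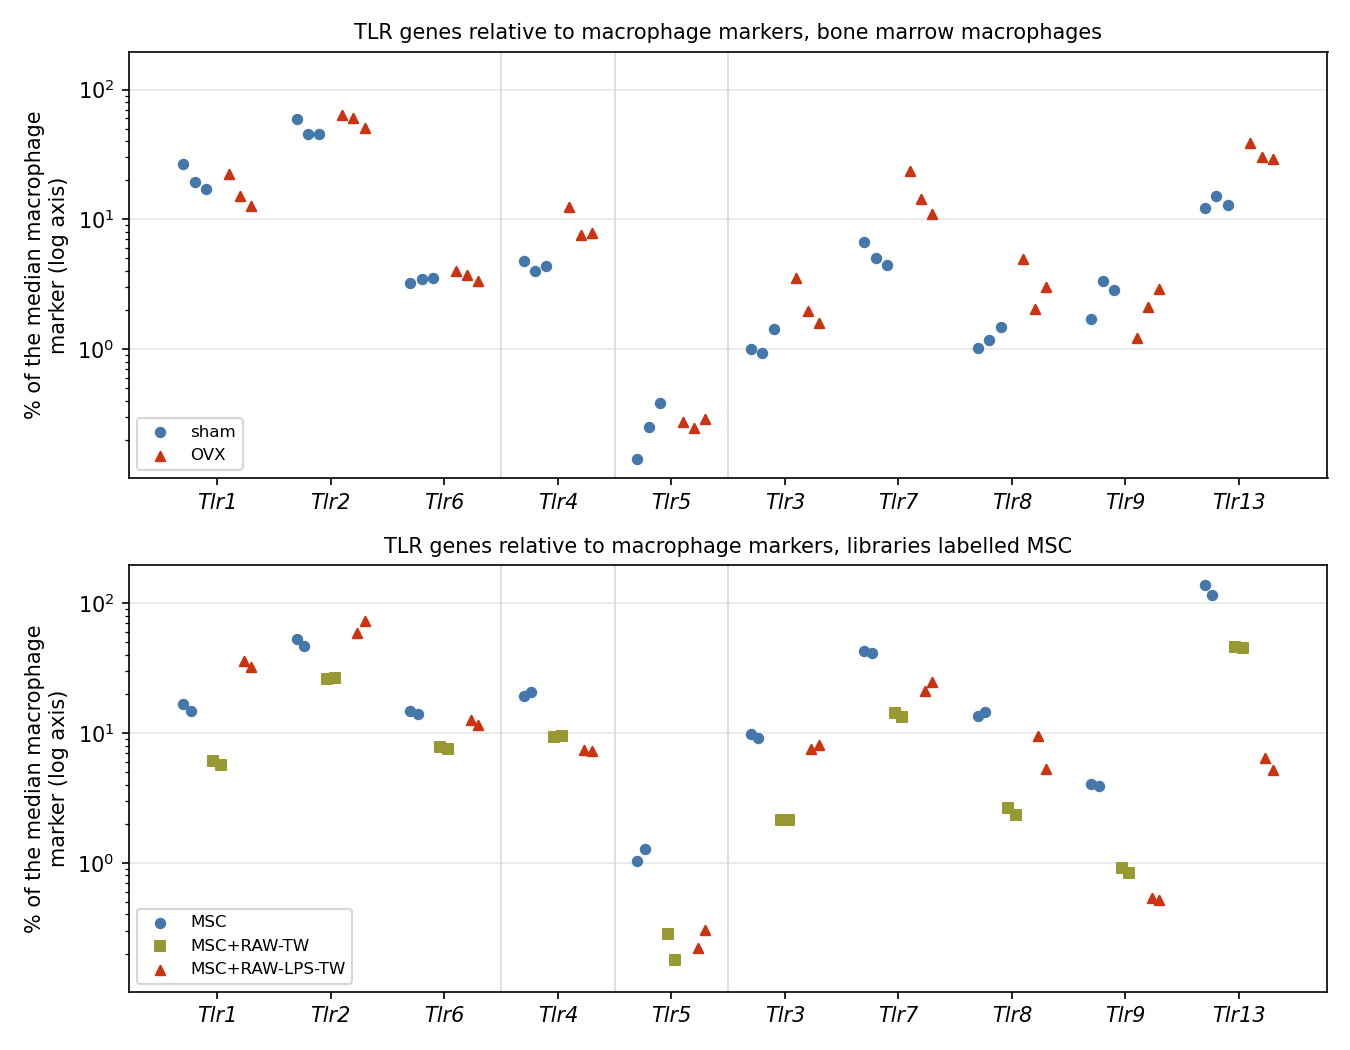
CPM of each TLR gene as a percentage of the median of 12 macrophage markers in the same library, on a log axis, for BMMs (top) and for the libraries labelled MSC (bottom). Tlr13 lies at 29.2 to 38.7% in OVX and 12.3 to 15.2% in sham, and at 115 to 139% in MSC against 5.23 to 6.39% in MSC+RAW-LPS-TW.

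Around the receptors, 26 of 71 pathway genes tested were called higher in MSC+RAW-LPS-TW against MSC and 4 lower, beside 5.85% higher and 5.09% lower over all genes. All 10 MyD88-dependent targets rose, with a median log2 fold change of 5.27, led by Il6 (0.531 and 0.381 CPM in MSC, 216 and 192 CPM in MSC+RAW-LPS-TW, 8.76), Il1b (8.71) and Cxcl1 (5.82). Il12b, a cytokine subunit, had 0 counts in both MSC libraries and 125 and 127 counts in MSC+RAW-LPS-TW, at least 42.6-fold higher than a floor of 3 counts per library. With that gene at its bound, the median was 5.20. Of 6 TRIF and interferon targets 5 rose, the largest being Cxcl10 (5.62), Ccl5 (3.21), Rsad2 (1.68) and Ifit1 (1.65). The interferon gene Ifnb1 was too low to test. In the lone MSC+RAW-TW sample against MSC, 4 of 10 MyD88 targets and 3 of 6 TRIF and interferon targets lay above a log2 fold change of 0. There Ccl5 stood at 2.15, Il6 at 1.94 and Tnf at 1.45, while Cxcl1 stood at -2.06 and Ifit1 at -1.14. The study names or pictures some of these targets, Il6, Il1b, Tnf, Ptgs2 and Ccl5 among them, as pro-inflammatory genes in these same samples, so their rise is not taken as independent evidence.

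Of 9 inhibitors of TLR signaling 5 rose, including the deubiquitinase gene Tnfaip3 (3.44), Socs1 (3.40), Irak3 (1.85) and the IL-33 receptor gene Il1rl1 (1.72). Irak2 (1.65) and the ubiquitin ligase gene Peli1 (1.22) rose among 17 kinases and ligases, Ticam2 (1.40) among 6 adaptors, and Nfkb1 (1.68) and Rel (1.13) among 7 transcription factors. Of 6 co-receptors, Cd180 and its partner Ly86, which form a TLR-like complex at the cell surface, fell (-1.82 and -1.45). Cd14 was at 652 and 765 CPM in MSC and 1414 and 769 CPM in MSC+RAW-LPS-TW (0.62, adjusted p = 0.0597). Ly96 was at 2.53 and 5.13 CPM in MSC and 5.64 and 6.19 CPM in MSC+RAW-LPS-TW (0.63, adjusted p = 0.227). Relative to the lone MSC+RAW-TW sample, MSC+RAW-LPS-TW stood at 1.11 for Cd14 and 1.68 for Ly96. Of 10 chaperones and endosomal proteins, Slc15a3 rose (1.98) and the lysosomal proteases Lgmn and Ctsb fell (-1.61 and -1.62), while Unc93b1 stood at 0.16 (adjusted p = 0.541). Myd88 had a value of 0.22 (adjusted p = 0.349). In all 14 alternatives that count calls, 10 of the MyD88 targets and 5 of the TRIF and interferon targets were called higher.

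**Figure D5:**
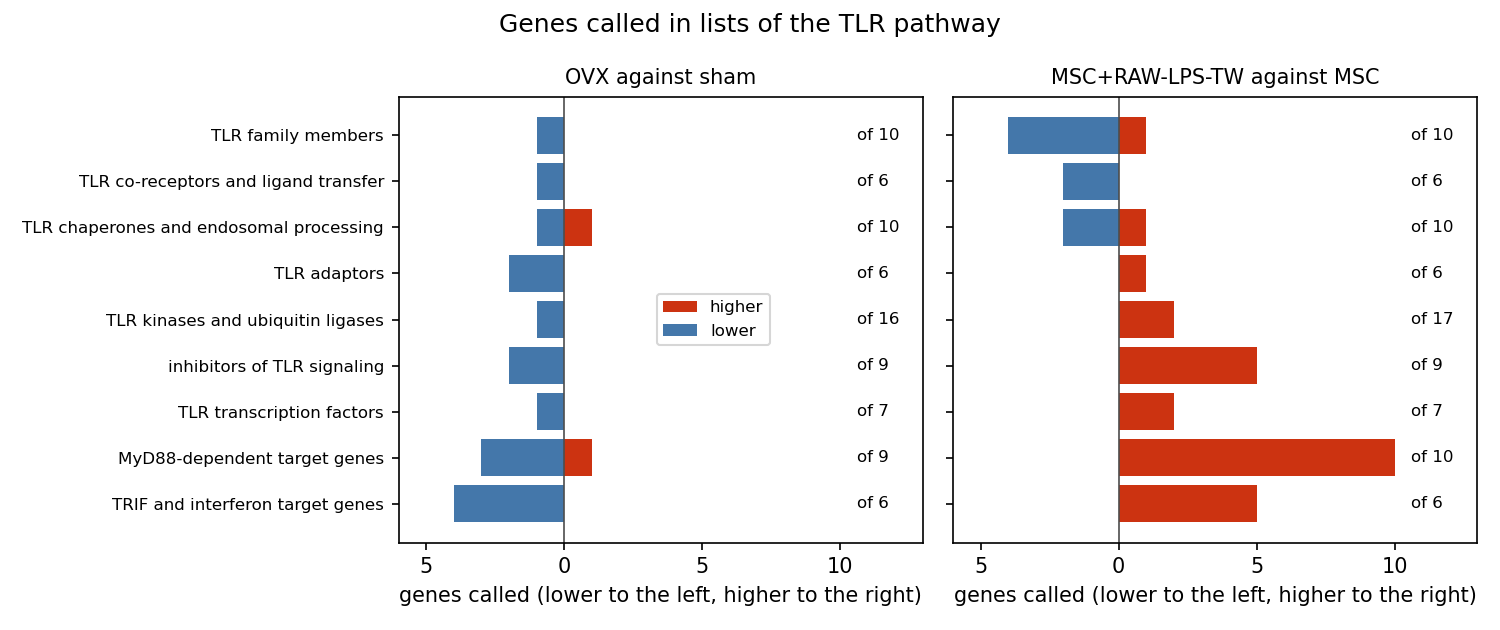
Number of genes called in each list of the TLR pathway, lower to the left of 0 and higher to the right, with the number tested at the right edge. In OVX against sham nearly all bars point to lower values, with 4 of 6 TRIF and interferon targets called lower. In MSC+RAW-LPS-TW against MSC all 10 MyD88-dependent targets are higher, while 4 of the 10 TLR genes are lower.

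The genes whose pattern over all 10 samples was most like that of a TLR gene were found among 9722 genes by the root mean square difference of log2 CPM, each centred within its experiment. For Tlr13 they were Gcnt1 (0.212), F13a1 (0.220) and Slc9a9 (0.257). For Tlr2 they were Lrrc59 (0.077), Surf4 (0.092) and Stat5a (0.098). For Tlr1 they were H2-T22 (0.108), H2-T10 (0.129) and Adgre1 (0.136), the last of which is also on the list of macrophage markers.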

How the data were processed

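RNA-seq was measured in 12 libraries of 2 experiments (BMM and MSC). Per the labels and the methods, the authors made poly(A) libraries with a directional kit, trimmed the reads with Trim Galore 0.6.7, mapped them to GRCm38 with HISAT2 2.1.0 and used featureCounts 2.0.1 with an Ensembl annotation. The values they deposited are whole-number counts, neither normalized nor filtered. Whether strand and read pairs were used in the counting is not given in the sources used here. Even numbers made up 60.0 to 71.4% of the counts between 1 and 20, so reads are not independent molecules. Names for 55141 of the 55487 identifiers came from a table of Ensembl gene names, and coordinates and transcripts from the GENCODE annotation of GRCm38.

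To find libraries deposited more than once, the chi-square of each gene between libraries of a group was divided by what sampling alone gives, using genes whose pair total reached 20 counts. In genes of high count the median ratio was 2.78 between sham replicates 2 and 3, and 3.35 between both MSC+RAW-TW libraries, against 23.3 to 150 in the other pairs, and ratios under 10 were taken as near-identical. Counts of such pairs were summed and used as 1 sample. The study's captions speak of independent experiments, but the labels tie no library to an animal or culture, so p-values measure the spread between these samples, which may be technical. CPM are TMM-scaled library shares of the deposited counts. Tests used edgeR 4.0.16 in R 4.3.3 (TMM, filterByExpr, quasi-likelihood F-test, two-sided, Benjamini-Hochberg adjustment over all genes), with OVX and sham in one fit and the 3 MSC groups in another. The SE was derived from the F statistic. On simulated data of the same depth, edgeR recovered 200 of 200 genes changed by a log2 fold change of 2. There was 1 false call among 16280 genes for OVX against sham and 3 among 18489 for MSC+RAW-LPS-TW against MSC. Smaller changes, such as those of the TLR genes in OVX against sham, were not simulated. The study's methods name DESeq2, run here as an alternative (DESeq2 1.42.0) beside RLE factors, other filters, no fold limit, separate libraries, blocking on the replicate number, lowess correction (span 0.3) for GC content and length, scaling to macrophage markers, each library left out, and only the groups compared. A block of the library number series in the column names was added after seeing the data. With separate libraries, blocked or not, each near-identical pair counts as 2 samples. The TLR genes, pathway lists and markers were chosen with earlier results of these data known. All 10 TLR genes are named, and of each pathway list up to 4 called genes with the largest change, plus Cd14, Ly96, Unc93b1 and Myd88. Genes of like pattern were sought for the 3 TLR genes with the highest mean per kb over all 10 samples. The genes compared had a mean of at least 5 CPM in both experiments. Lists are described by counts, without a set test. Protein sequences were not used here. Figures were drawn with matplotlib 3.10.9.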

Additional observations from a re-analysis of the deposited data

How the results depend on the processing

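The number of TLR genes called in OVX against sham was 1, and 0 to 1 when a library was left out, while all genes called went from 1419 to between 309 and 2390. It was 0 without OVX replicate 1, 2 or 3 or sham replicate 2. With no fold limit 2193 genes and 2 TLR genes passed. With the GC and length trends removed 590 genes and 1 TLR gene, Tlr1, were called. The log2 fold change of Tlr1 kept its direction in all 15 alternatives with a test (-1.39 to -0.57) and lost the call in 8. Scaling to macrophage markers gave values with no test and is not among these. Between BMM libraries of the same replicate number, correlations of deviations were 0.364, -0.012 and 0.312 for numbers 1 to 3. Because sham replicates 2 and 3 are near-identical, these values cannot tell whether the replicate number pairs the samples. With the replicate block and all libraries separate, Tlr1 stood at -0.87 and Tlr7 was called at 1.02. No paired analysis by replicate number was possible for the MSC groups because the columns of MSC+RAW-TW and MSC+RAW-LPS-TW carry no usable replicate numbers. A block of the library number series, chosen after seeing the data, gave 5 TLR genes for MSC+RAW-LPS-TW against MSC, 4 relative to MSC+RAW-TW and 4 for MSC+RAW-TW against MSC. Over the 14 alternatives with the fold limit, all genes called were 1925 to 2781, 4525 to 6718 and 2165 to 4574 in these comparisons. For MSC+RAW-LPS-TW against MSC, 3 to 6 TLR genes were called when a library was left out, against 5. All genes called were then 1925 to 2781, against 2243. With no fold limit 4286 genes passed. Tlr1, Tlr9 and Tlr13 kept direction and call in all 14 alternatives with a test. Against MSC+RAW-TW, 8234 genes and 7 TLR genes passed with no fold limit. For MSC+RAW-TW against MSC, 5862 genes and 5 TLR genes passed with no fold limit, and 2165 genes and 1 TLR gene with the trends removed.

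Some directions turned, in values that had not been called. With the trends removed, Tlr3 was -0.29 and Tlr4 -0.35 in OVX against sham, Tlr3 -0.026 in MSC+RAW-LPS-TW against MSC, Tlr6 -0.30 and Tlr7 -0.62 (adjusted p = 0.0165) in MSC+RAW-LPS-TW relative to MSC+RAW-TW, and Tlr2 0.037 and Tlr4 0.68 (adjusted p = 0.0225) in MSC+RAW-TW against MSC. In that comparison Tlr2 was 0.006 with RLE, DESeq2 or a mean CPM of at least 1, and Tlr6 -0.027 with separate libraries, -0.028 with their number series as a block and -0.021 with only the groups compared. Leaving out libraries gave -0.71 to 0.23 for Tlr5 in OVX against sham, -0.043 to 0.072 for Tlr3 and -0.10 to 0.14 for Tlr6 in MSC+RAW-LPS-TW against MSC, -0.062 to 0.14 for Tlr6 against MSC+RAW-TW, and -0.054 to 0.003 for Tlr2 and -0.065 to 0.07 for Tlr6 in MSC+RAW-TW against MSC. The cause was not tested. Depth limits Tlr5, which had between 14 and 82 counts per library.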
